A study of Zea mays with 28 samples.

Results

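Maize leaves fed on by the generalist spider mite *Tetranychus urticae* for 24 h were compared with control leaves by RNA-seq. The comparison takes the 4 libraries whose titles name this mite and time point and the 4 libraries titled as not infested, 8 of the 28 libraries of the series, and covers all genes of the count table. The other 20 libraries hold leaves after 2 h with the same mite, after 2 or 24 h with the grass specialist *Oligonychus pratensis*, and after 2 or 24 h of wounding, with 4 leaves per group. Of these, the groups with *O. pratensis* or wounding for 24 h are used below, to show where the leaves with *T. urticae* differed from them.

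All plants were of the inbred line B73. A section of leaf 4 of 22-day-old plants was closed off with a TangleFoot barrier, a sticky wax that holds mites in place. Leaves of the *T. urticae* and *O. pratensis* groups each received 200 adult females of the named species in this section for 24 h. Wounded leaves were pressed with sandpaper 24 h before harvest. Control leaves carried the barrier and nothing else. Each replicate was the enclosed section of a single leaf from its own plant, and all were harvested together, so the single control group serves every comparison. All control leaves and all treated leaves thus share the barrier and the time of day.

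Spider mites pierce leaf cells and empty them, and the mesophyll, which carries most of the chloroplasts, is their main food. Maize answers chewing and piercing herbivores with jasmonates, hormones made from the fatty acids of plastid membranes by lipoxygenases, allene oxide synthase, allene oxide cyclase and oxophytodienoate reductases. Downstream lie benzoxazinoids, the indole-derived toxins of grasses, terpene volatiles that attract predators, and proteins that block or digest the feeder's own molecules.

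The libraries of *T. urticae* leaves held 20464837 to 23330904 counted reads and those of control leaves 24675890 to 29950702, within a range of 14721310 to 32891100 over the 28 libraries. Between 25896 and 26029 genes had a read in each *T. urticae* library, against 24921 to 25703 in each control library. TMM scaling factors, which correct for the share of reads taken by a few strongly expressed genes, were 1.08 to 1.2 in *T. urticae* leaves and 0.9 to 0.98 in control leaves. No pair of libraries within either group agreed within sampling noise. Values are given below as CPM (counts per 1e6 reads of the library) after TMM scaling, in the order of the replicates, and means with their SD over the 4 leaves of a group. The error after a log2 fold change is its SE. Since counts were not divided by gene length, levels are compared between leaves and not between genes.

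Of the 22339 genes tested, 3340 (15%) were higher and 914 (4.09%) were lower in *T. urticae* leaves than in control leaves with an adjusted p not above 0.01 and at least a 2-fold difference (edgeR quasi-likelihood test, Benjamini-Hochberg adjustment). Genes past both limits are called below, and "rose" and "fell" are used of called genes alone. The median log2 fold change of all tested genes was 0.04. Rises were larger than falls, as 1652 genes rose and 92 fell by at least 2 on the log2 scale, 567 rose and 1 fell by at least 4, and 114 rose by at least 7. The 4 leaves of one group lay wholly above the 4 of the other for 3259 of the called risers and 837 of the called fallers, while 26.5% of all tested genes showed such separation upward and 17.3% downward. When libraries were scaled by their total counts in place of TMM, the median of all tested genes moved to 0.3, the calls became 4376 higher and 405 lower, and the share of calls that were higher was 91.5%, against 78.5% with TMM.

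**Figure D1:**
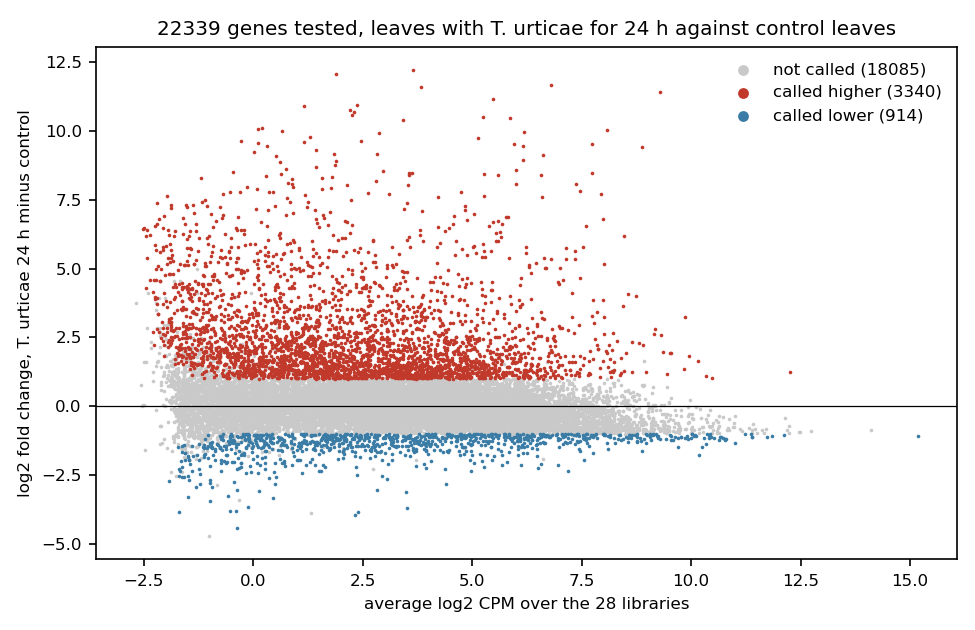
Log2 fold change of each tested gene in *T. urticae* leaves at 24 h minus control leaves (vertical axis) against its average log2 CPM over the 28 libraries (horizontal axis). Each point is a gene, red for the 3340 called higher, blue for the 914 called lower and grey for the rest, and the red points reach much farther from 0 than the blue ones.

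Genes called higher took 11.7%, 15.3%, 13.2% and 16.4% of all reads in the 4 *T. urticae* leaves, against 3.13%, 3.48%, 2.54% and 2.88% in the 4 control leaves. Genes called lower took 11.7%, 9.81%, 10.6% and 8.2% of reads in *T. urticae* leaves, against 18.3%, 17.2%, 19.4% and 19.2% in control leaves. These shares rest on genes chosen by the same comparison and describe its size only. The *T. urticae* leaves were not alike in the size of their response. Leaf 4 had the highest value for 41.4% of the risers and the lowest for 56.6% of the fallers, and leaf 1 had the lowest value for 42.3% of the risers and the highest for 55.5% of the fallers, where each leaf was lowest or highest for 18.6% to 29.3% of all tested genes. Control leaves were uneven as well. Control leaf 1 had the highest value for 40.2% of the risers and control leaf 2 the lowest for 42.7% of the fallers. Without *T. urticae* leaf 4 the count of called fallers was 669, and without *T. urticae* leaf 1 it was 1244.

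The plot of gene lists gives each member of 30 lists of pathways and gene families by its fold change. Lists were ordered by their median, and the account below goes through them by role, from hormone synthesis through toxins, volatiles and proteins to photosynthesis. Counts of list members can be read against the 15% and 4.09% of all tested genes that were called. In the 20 lists with no member called lower by edgeR, 35 of 300 tested members were lower at an unadjusted p under 0.05, and DESeq2 called 0 of them lower. Over all 22339 tested genes, 5855 were lower than control at that unadjusted limit.

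**Figure D2:**
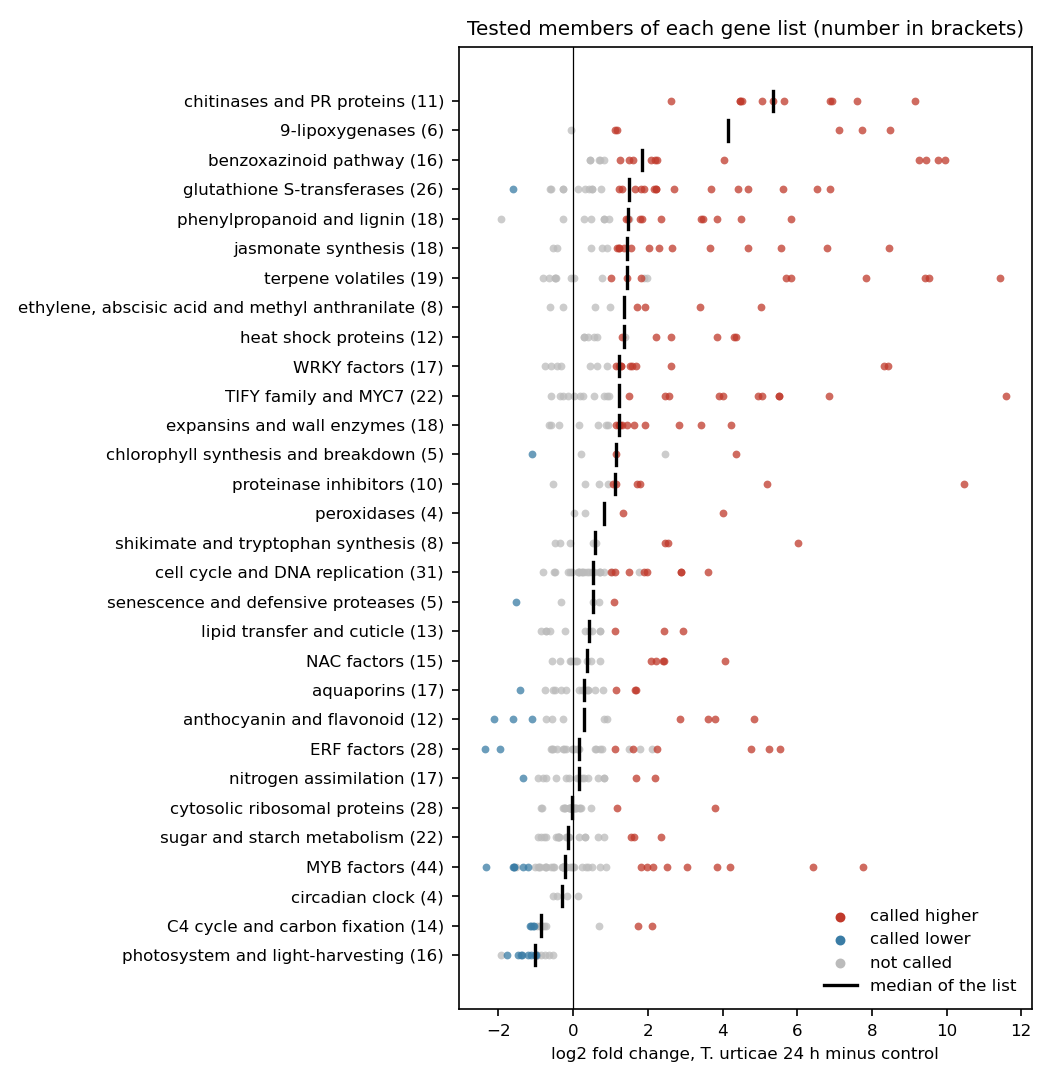
Log2 fold change in *T. urticae* leaves at 24 h minus control leaves (horizontal axis) for the tested members of each gene list (rows, number of members in brackets). Points are genes, red called higher, blue called lower and grey not called, and the black bar is the median of the list, which ran from -1.01 for photosystem and light-harvesting genes to 5.35 for chitinases and PR proteins.

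The list of jasmonate synthesis had risers in each of its enzyme families. Of 18 tested members 13 rose and none fell, with a median log2 fold change of 1.45. The list goes by family and holds 7 oxophytodienoate reductase genes, 5 of which rose, though not all of them make jasmonate. The paper also calls the jasmonate role of the allene oxide synthase genes of clade 2 uncertain. Whether aos2, described next, belongs to that clade was not checked. The largest rises were at allene oxide synthase, which commits the lipoxygenase product to jasmonate. Its gene aos2 (GRMZM2G002178) had 20.2, 38.7, 13.5 and 31.5 CPM in *T. urticae* leaves, against 0.0758, 0.103, 0.0417 and 0.0442 CPM in control leaves (log2 fold change 8.47 ± 0.61, adjusted p = 1.3e-11), and aos1 averaged 223 ± 51.9 CPM in *T. urticae* leaves and 1.99 ± 0.624 CPM in control leaves, a 112-fold difference. For both genes every *T. urticae* leaf lay above every control leaf. The allene oxide cyclase genes aoc1 and aoc2 rose by 2.30 ± 0.18 and 2.65 ± 0.25 on the log2 scale.

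Among the 13-lipoxygenases, which feed this pathway, lox10 had the highest CPM of all called risers. It had 7206, 8713, 7197 and 8081 CPM in *T. urticae* leaves, against 3460, 3318, 3036 and 3476 CPM in control leaves (log2 fold change 1.23 ± 0.17, adjusted p = 1.2e-06), so its rise was a 2.35-fold one on a high base with no overlap of the groups. In maize lox10 is known for supplying the precursors of green leaf volatiles. Its relatives lox9 (2.03) and lox7 (1.54) also rose on the log2 scale, whereas lox8 (0.91 ± 0.14) and lox11 (0.77 ± 0.18) passed the adjusted p but stayed under 2-fold. Of the oxophytodienoate reductases, opr7 and opr8 are the ones that make jasmonate in maize. Of these opr7 rose by 1.24 ± 0.14, and opr8, at 0.49 ± 0.12, was not called. The members opr1, opr2 and opr3 had larger rises of 4.67, 5.57 and 3.66.

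The 9-lipoxygenases include a separate branch that makes oxylipins known from maize defence against nematodes and fungi. They were listed together with lox1, whose enzyme has both 9- and 13-lipoxygenase activity, so lox1 is not a marker of that branch. The list also holds lox6 and lox12. The paper names lox3, lox4 and lox5 in the 9-lipoxygenase clade and does not place lox6 or lox12 there. Counts of this list are thus not counts of 9-lipoxygenases alone. Of the 6 tested members of this list 5 rose, with a median of 4.15. The gene lox1 had 533, 914, 696 and 878 CPM in *T. urticae* leaves, against 1.25, 3.28, 2.33 and 1.46 CPM in control leaves (log2 fold change 8.49 ± 0.44, adjusted p = 3.3e-14). Likewise lox5 averaged 396 ± 113 CPM in *T. urticae* leaves and 1.86 ± 0.497 CPM in control leaves (log2 fold change 7.73 ± 0.53, adjusted p = 5.9e-12), and lox3 had a log2 fold change of 7.12 ± 0.52. For all of them the lowest *T. urticae* leaf lay far above the highest control leaf. In contrast, lox4 and lox6 rose by 1.18 ± 0.19 and 1.11 ± 0.22, and lox12 was at -0.05 ± 0.17 (adjusted p = 0.82).

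Genes of the TIFY family, which include the JAZ repressors of jasmonate signalling, split into responders and non-responders. Of 21 tested members 11 rose, none fell, and the median was 1.5. TIFY29 had 11.9, 20.4, 9.87 and 18 CPM in *T. urticae* leaves, against 0, 0, 0 and 0 CPM in control leaves, and since no control library held a read of it the rise was at least 521-fold (set against 3 reads over the 4 control libraries together). TIFY2 averaged 34.9 ± 6.88 CPM in *T. urticae* leaves and 2.16 ± 0.15 CPM in control leaves, and TIFY27 averaged 84.2 ± 10.3 CPM in *T. urticae* leaves and 15.2 ± 0.909 CPM in control leaves, with log2 fold changes of 4.02 ± 0.28 and 2.47 ± 0.19. The members with the highest CPM, TIFY24 and TIFY16, had log2 fold changes of 0.19 ± 0.12 and 0.56 ± 0.14 and were not called. The gene myc7, for a MYC factor of the kind that the JAZ proteins hold back, was at 0.90 ± 0.16, under the 2-fold limit.

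Benzoxazinoid genes rose along the pathway and most steeply at its end. Of 16 tested members 11 rose and none fell (median 1.85). BX1, which makes the indole that opens the pathway, had 69.3, 196, 150 and 113 CPM in *T. urticae* leaves, against 7.8, 10.1, 3.63 and 10.7 CPM in control leaves (log2 fold change 4.03 ± 0.74, adjusted p = 5.0e-05). Next come the cytochrome P450 genes BX2 to BX5, of which BX2, BX3 and BX5 rose by 2.25 ± 0.42, 2.09 ± 0.17 and 1.61 ± 0.16, while BX4 (0.83 ± 0.14) stayed under 2-fold. Of the later genes of DIMBOA-glucoside synthesis, the dioxygenase gene BX6 and the glucosyltransferase gene BX9 rose by 1.26 ± 0.15 and 1.50 ± 0.17, and the other glucosyltransferase gene BX8 was at 0.69 ± 0.13. Igl, whose enzyme releases free indole as a volatile, rose by 2.18 ± 0.43.

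The O-methyltransferase genes BX10 and BX11 turn DIMBOA-glucoside into the more reactive HDMBOA-glucoside. BX10 had 92.7, 135, 87 and 137 CPM in *T. urticae* leaves, against 0.0758, 0.171, 0.125 and 0.0442 CPM in control leaves (log2 fold change 9.97 ± 0.58, adjusted p = 2.2e-13). BX11 averaged 107 ± 22.3 CPM in *T. urticae* leaves and 0.152 ± 0.0632 CPM in control leaves, a 703-fold difference. BX13 and BX14 act in a side branch to a further methoxylated form and had 301 and 437 reads over the *T. urticae* libraries and 0 and 0 over the control libraries, so that they were at least 103-fold and 150-fold higher (against 3 reads over the control libraries). Per leaf, BX14 had 2.36, 4.18, 1.86 and 8.61 CPM in *T. urticae* leaves, against 0, 0, 0 and 0 CPM in control leaves. None of these 4 genes had a *T. urticae* leaf within the control range. The glucosidase genes glu1 (0.44 ± 0.44) and glu2 (0.72 ± 0.36), whose enzymes free the toxins from their sugar, were not called.

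Terpene genes held some of the largest rises. The sesquiterpene synthase gene tps10, whose enzyme makes herbivore-induced bergamotene and farnesene, had 820, 1738, 1058 and 1950 CPM in *T. urticae* leaves, against 0.417, 0.376, 0.833 and 0.398 CPM in control leaves (log2 fold change 11.43 ± 0.63, adjusted p = 8.5e-14). TPS2 (GRMZM2G046615) had 795, 1680, 1551 and 1868 CPM in *T. urticae* leaves, against 1.44, 2.5, 3.33 and 1.28 CPM in control leaves, and TPS3 averaged 681 ± 245 CPM in *T. urticae* leaves and 0.912 ± 0.496 CPM in control leaves. Both belong to the terpene synthases behind linalool, nerolidol and the homoterpenes, and their log2 fold changes were 9.42 ± 0.58 and 9.53 ± 0.60. The homoterpene P450 genes CYP92C5 and CYP92C6 rose by 1.43 ± 0.20 and 1.81 ± 0.15. Of the precursor genes of the plastid route, dxs2 averaged 328 ± 74 CPM in *T. urticae* leaves and 1.43 ± 0.337 CPM in control leaves (log2 fold change 7.83 ± 0.46) and hds1 rose by 1.02 ± 0.15. The paralogue of dxs2, dxs1, had -0.80 ± 0.21 and dxr -0.49 ± 0.10, both below 0 and under 2-fold. The call of hds1 lies at the 2-fold limit and was lost, at 0.98 to 1.0, without *T. urticae* leaf 2 or 4 or control leaf 1 or 2, with DESeq2 or RLE size factors, and with only the 8 libraries compared. In all, 9 of 19 tested members rose and none fell (median 1.43). The diterpene synthase genes an1 and an2 were not called.

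**Figure D3:**
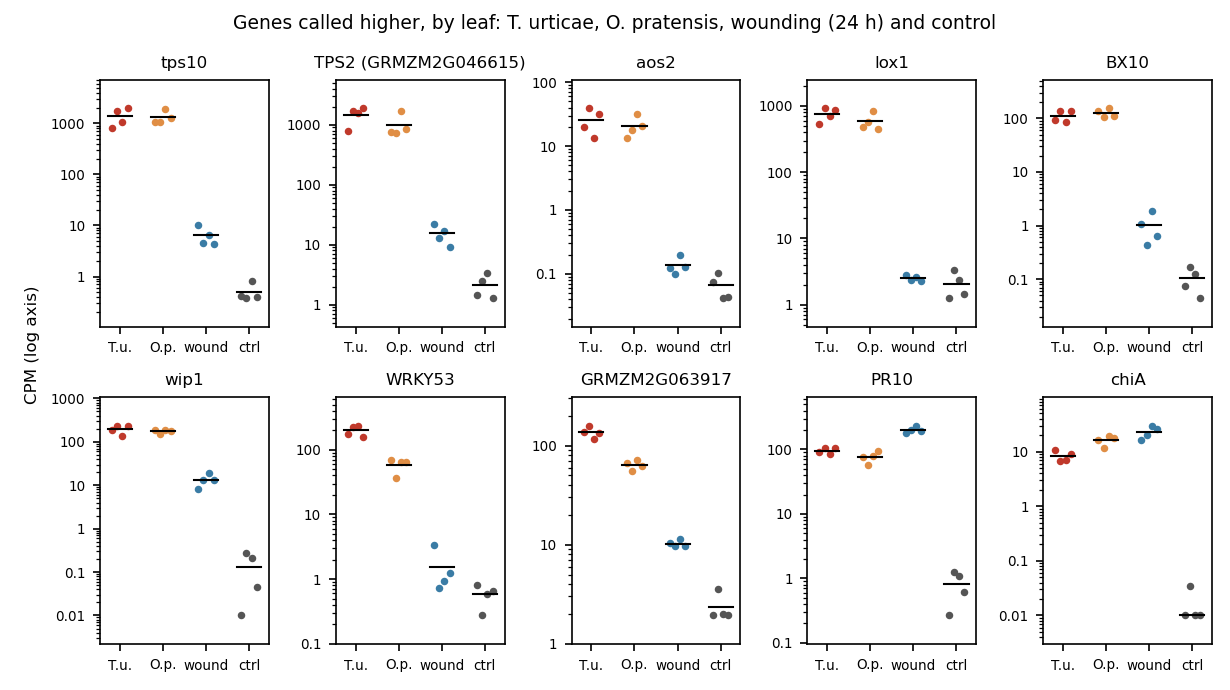
CPM of 10 genes called higher (log axis, own scale per panel, values under 0.01 drawn at 0.01), with 4 leaves each, from left to right, with *T. urticae* (T.u.), with *O. pratensis* (O.p.), wounded, and control, all treatments for 24 h. Points are leaves and bars are means, and in every panel the 4 *T. urticae* points stand above the 4 control points, while in the panels of PR10 and chiA the mean of the wounded leaves lies above that of the *T. urticae* leaves.

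Defence proteins rose widely. All 11 tested chitinases and PR proteins rose, with a median log2 fold change of 5.35 and a range of 2.63 to 9.15. PR10, a ribonuclease-like protein, had 89.9, 105, 84.7 and 104 CPM in *T. urticae* leaves, against 0.265, 1.27, 1.08 and 0.619 CPM in control leaves (log2 fold change 6.87 ± 0.30, adjusted p = 1.5e-15). The chitinase gene chn1 averaged 482 ± 173 CPM in *T. urticae* leaves and 11.8 ± 5.56 CPM in control leaves, and PR-1 and the thaumatin-like gene pr5 rose by 4.47 ± 0.50 and 2.63 ± 0.38. Control libraries held 1 read of chiA, against 818 in the *T. urticae* libraries, a ratio of 843 (95% interval 151 to 33318) that covers counting error only. The leaves did not overlap for PR10, chn1 or chiA.

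Proteinase inhibitors, which act on digestive enzymes of the feeder, rose in 6 of 10 tested members (median 1.11). The serine inhibitor gene wip1, a Bowman-Birk type known from wounded maize, had 188, 235, 139 and 233 CPM in *T. urticae* leaves, against 0, 0.274, 0.208 and 0.0442 CPM in control leaves (log2 fold change 10.46 ± 0.44, adjusted p = 1.1e-15). MPI, the maize proteinase inhibitor, averaged 800 ± 218 CPM in *T. urticae* leaves and 22.1 ± 9.61 CPM in control leaves, a 36.2-fold difference. Of the cystatins, inhibitors of cysteine proteases, psei2, psei7, psei5 and psei1 rose by 1.78, 1.70, 1.15 and 1.07 on the log2 scale, psei4 was at 0.32 ± 0.14, and psei3 at -0.55 ± 0.14 was on the other side of 0 without being called.

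Aromatic metabolism rose at the entry to the phenylpropanoids. A phenylalanine ammonia-lyase gene, GRMZM2G063917, had 136, 159, 116 and 133 CPM in *T. urticae* leaves, against 1.93, 3.59, 2 and 1.94 CPM in control leaves (log2 fold change 5.83 ± 0.22, adjusted p = 2.9e-16). The cinnamate 4-monooxygenase genes GRMZM2G147245 and GRMZM2G010468 rose by 4.49 ± 0.39 and 3.86 ± 0.33, and the lignin methyltransferase gene ccoaomt1 by 3.42 ± 0.20. Upstream, where phenylalanine is made, the prephenate dehydratase gene GRMZM2G125923 averaged 43.5 ± 4.06 CPM in *T. urticae* leaves and 0.66 ± 0.175 CPM in control leaves. Another such gene, GRMZM2G437912, averaged 118 ± 15.7 CPM in *T. urticae* leaves and 20.2 ± 5.93 CPM in control leaves, and both were called. Chorismate mutase CM2 rose by 2.46 ± 0.20. In the tryptophan branch orp1 (0.62 ± 0.13), orp2 (-0.48 ± 0.10) and TSA (-0.34 ± 0.08) were within 2-fold of control and not called. Over the lists, 10 of 18 phenylpropanoid and lignin genes and 3 of 8 shikimate and tryptophan genes rose, none fell, and the medians were 1.48 and 0.58.

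Flavonoid genes moved in both directions, with 4 of 12 tested members higher and 3 lower. The chalcone synthase gene c2, the first step to flavonoids, had 347, 214, 162 and 129 CPM in *T. urticae* leaves, against 632, 779, 478 and 725 CPM in control leaves (log2 fold change -1.62 ± 0.30, adjusted p = 6.4e-05). Its duplicate whp1 averaged 41.8 ± 26.1 CPM in *T. urticae* leaves and 182 ± 67.9 CPM in control leaves (log2 fold change -2.13 ± 0.50, adjusted p = 8.2e-04), and the chalcone isomerase gene chi1 had a log2 fold change of -1.10 ± 0.27, a call that was lost without *T. urticae* leaf 4 (-0.91) or control leaf 4 (-0.99) and with total-count scaling (-0.84). These 3 genes make up the early steps. Farther along, f3h, a2 and bz2 rose by 3.60 ± 0.51, 4.84 ± 0.85 and 3.80 ± 0.57, each averaging under 0.5 CPM in control leaves, and so did the bHLH regulator r1 (2.87 ± 0.41). The levels of the other regulators tested, c1 and pl1, were not called.

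Glutathione S-transferases, which detoxify by adding glutathione, rose in 15 of 26 tested members and fell in 1 (median 1.49). GST25 averaged 127 ± 53.3 CPM in *T. urticae* leaves and 1.08 ± 0.473 CPM in control leaves, and gst31 averaged 474 ± 196 CPM in *T. urticae* leaves and 5.12 ± 2.24 CPM in control leaves, with log2 fold changes of 6.88 ± 0.43 and 6.54 ± 0.42. Among those called, gst1, with the highest CPM, rose by 1.23 ± 0.12, and the only faller was gst41, at 0.225 to 2.5 CPM over the 8 leaves, whose groups overlapped (-1.61 ± 0.48). This call was lost, at -1.66 to -1.16, without *T. urticae* leaf 1, 3 or 4, without control leaf 1 or 3, with total-count scaling and with only the 8 libraries compared. Of 4 peroxidase genes PER2 and PER42 rose, by 4.00 ± 0.50 and 1.33 ± 0.14. Heat shock genes rose in 6 of 12 (median 1.35), among them hsp22 with 6.03 ± 2.18 CPM in *T. urticae* leaves and 0.294 ± 0.139 CPM in control leaves, hsp101 with 2.14 ± 0.97 CPM in *T. urticae* leaves and 0.146 ± 0.123 CPM in control leaves and HSP90-1 with 119 ± 20.3 CPM in *T. urticae* leaves and 48.3 ± 7.16 CPM in control leaves, whereas hsp70-4 was at 0.28 ± 0.15.

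Among the WRKY, NAC, ERF and MYB families of transcription factors, WRKY genes held the largest rises. WRKY53 had 176, 224, 235 and 160 CPM in *T. urticae* leaves, against 0.796, 0.274, 0.583 and 0.663 CPM in control leaves (log2 fold change 8.43 ± 0.41, adjusted p = 1.0e-14), and WRKY104 averaged 17.2 ± 3.05 CPM in *T. urticae* leaves and 0.0493 ± 0.0533 CPM in control leaves (log2 fold change 8.32 ± 0.45, adjusted p = 6.8e-14). Of 17 tested WRKY genes 10 rose and none fell (median 1.23), the other 8 risers by 2.61 or less. NAC genes rose in 5 of 15 and ERF genes in 6 of 28, with 2 ERF fallers, and their medians were 0.37 and 0.15. MYB genes had 9 risers and 6 fallers among 44, the most fallers but also the most tested members of these 4 families. Their median was -0.23, and 0.04 with total-count scaling. MYB166 averaged 2.94 ± 0.896 CPM in *T. urticae* leaves and 0.0291 ± 0.0198 CPM in control leaves (log2 fold change 6.42 ± 0.39). MYBR41 had 10.5, 15, 13.1 and 6.7 CPM in *T. urticae* leaves, against 66.2, 43.5, 56.3 and 64 CPM in control leaves (log2 fold change -2.34 ± 0.21, adjusted p = 8.9e-10), with no overlap.

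Of 8 tested genes for ethylene, abscisic acid and methyl anthranilate 4 rose and none fell (median 1.36). The ACC synthase gene acs7, for the limiting step of ethylene synthesis, averaged 5.74 ± 2.48 CPM in *T. urticae* leaves and 0.527 ± 0.245 CPM in control leaves (log2 fold change 3.40 ± 0.39, adjusted p = 4.5e-08), while ACO20 and ACO31, for the last step, were not called. The abscisic acid gene vp14 rose by 1.72 ± 0.21. AAMT1 makes the volatile methyl anthranilate and averaged 78.7 ± 30 CPM in *T. urticae* leaves and 2.37 ± 1.8 CPM in control leaves, AAMT3 rose by 1.92 ± 0.20, and AAMT2 was at -0.28 ± 0.19 and not called.

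Cell wall genes rose in 11 of 18 tested members, with a median of 1.22. Among cellulose synthase genes CesA-8 had 43.9, 46, 44.2 and 46.9 CPM in *T. urticae* leaves, against 5.34, 7.8, 3.79 and 8.57 CPM in control leaves (log2 fold change 2.83 ± 0.22, adjusted p = 4.1e-11), and CesA-4, CesA-2, CesA-1 and CesA-5 rose by 1.14 to 1.31 on the log2 scale. The expansin genes EXPA5 and expa2 and the wall-loosening gene xth1 rose by 4.23 ± 0.48, 3.43 ± 0.48 and 1.92 ± 0.24. Both expansin genes had low levels. EXPA5 averaged 1.18 CPM in *T. urticae* leaves and 0.0556 CPM in control leaves, and expa2 averaged 1.32 and 0.116 CPM. In the list of cell cycle and DNA replication 8 of 31 rose, with a median of 0.54. They included the replication genes MCM6 (2.88 ± 0.42) and MCM7 (1.89 ± 0.48) and the tubulin genes tub6 (1.98 ± 0.31), tua5 (1.49 ± 0.22) and tub5 (1.12 ± 0.23, or 0.94 and not called without control leaf 3). The count of risers was 5 when only the 8 compared libraries were fitted.

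Photosynthesis genes had lower levels. All 16 tested genes of the photosystems, light-harvesting antennae and electron transport had fold changes below 0, from -1.93 to -0.54 with a median of -1.01 on the log2 scale, and 8 of them fell. The light-harvesting gene cab-m1 had 686, 347, 686 and 180 CPM in *T. urticae* leaves, against 1677, 1254, 1925 and 1623 CPM in control leaves (log2 fold change -1.77 ± 0.44, adjusted p = 0.0014), and lhcb3 had 1020, 616, 725 and 437 CPM in *T. urticae* leaves, against 1722, 1950, 1675 and 2011 CPM in control leaves (log2 fold change -1.39 ± 0.21, adjusted p = 3.5e-06). In both genes leaf 4 was the lowest of the *T. urticae* leaves and no *T. urticae* leaf reached the control range. The photosystem I genes psad1, psan1 and psah1 and the ATP synthase gene atpc1 fell, with log2 fold changes of -1.36 ± 0.29, -1.13 ± 0.24, -1.02 ± 0.19 and -1.20 ± 0.16. Summed over the list, *T. urticae* leaves held 7979 to 15030 CPM and control leaves 21387 to 25513 CPM. The number of fallers depends on where the 2-fold limit lies, as lhcb4, lhcb5 and cp29 missed it at -0.97, -0.98 and -0.96. It was 5 without *T. urticae* leaf 4 (psan1 then at -0.94 and psah1 at -0.84) and 4 with total-count scaling (psan1 then at -0.87, psah1 at -0.76 and atpc1 at -0.94). The psah1 gene was also under 2-fold without *T. urticae* leaf 2 (-0.97) or control leaf 3 (-0.93) or 4 (-0.99). In whole leaf sections, fewer cells of a type and less RNA per cell cannot be told apart.

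The C4 cycle is divided between mesophyll cells, which first fix carbon, and bundle sheath cells, which hold Rubisco. Members of both sides had fold changes below 0. The 3 mesophyll genes, pep1, ppdk1 and mdh6, had a median log2 fold change of -0.88, and the 5 bundle sheath genes, me3, rbcs1, rbcS, rca1 and rca3, one of -0.89. No test of the difference between the cell types was made. Summed, the mesophyll genes held 29392 to 44383 CPM in *T. urticae* leaves and 65173 to 83114 CPM in control leaves, and the bundle sheath genes 6735 to 11566 CPM in *T. urticae* leaves and 15342 to 19202 CPM in control leaves. The mesophyll gene ppdk1, which had the highest CPM of all fallers, had 26705, 22826, 23684 and 18192 CPM in *T. urticae* leaves, against 44290, 39947, 56388 and 51503 CPM in control leaves (log2 fold change -1.07 ± 0.12, adjusted p = 6.2e-08). The bundle sheath gene rca1, for Rubisco activase, had 1399, 1120, 914 and 687 CPM in *T. urticae* leaves, against 2410, 2163, 2366 and 2173 CPM in control leaves (log2 fold change -1.15 ± 0.18, adjusted p = 8.6e-06). For pep1 the values were 11868 ± 2400 CPM in *T. urticae* leaves and 21427 ± 2376 CPM in control leaves, and for me3 4699 ± 792 CPM in *T. urticae* leaves and 8729 ± 1564 CPM in control leaves, with log2 fold changes of -0.85 ± 0.12 and -0.89 ± 0.15 that were under 2-fold and so not called.

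Of the 14 genes of the C4 list 4 fell, namely ppdk1, rca1, rca3 and the Calvin cycle gene gpa1. The number was 0 without *T. urticae* leaf 4 or with total-count scaling, 2 without control leaf 3 and 8 without *T. urticae* leaf 1. Most members lay close to the 2-fold limit. Without *T. urticae* leaf 4 the values were -0.98 for ppdk1, -0.99 for rca1 and -0.98 for gpa1, and without control leaf 3 they were -0.97 for ppdk1 and -1.0 for gpa1, which was also at -1.0 without *T. urticae* leaf 2 and at -0.96 without control leaf 4. Of the kinases that switch on PEP carboxylase, ppck2 and ppck4 rose by 2.10 ± 0.35 and 1.75 ± 0.44, the call of ppck4 being lost without *T. urticae* leaf 4 (1.45, edgeR adjusted p = 0.012), while ppck1 was at -0.74 ± 0.15. In chlorophyll metabolism the magnesium chelatase gene oy1 had 228, 130, 139 and 94.8 CPM in *T. urticae* leaves, against 244, 433, 268 and 330 CPM in control leaves (log2 fold change -1.11 ± 0.19, adjusted p = 2.6e-05). Its call was lost without *T. urticae* leaf 4 (-0.94) or control leaf 2 (-0.93) and with total-count scaling (-0.86). The breakdown gene lls1, for pheophorbide a oxygenase, rose by 1.15 ± 0.15. A stay-green gene, GRMZM2G379563, had 50 reads over the *T. urticae* libraries and 2 over the control libraries, a ratio of 25.7 (95% interval 6.77 to 218).

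**Figure D4:**
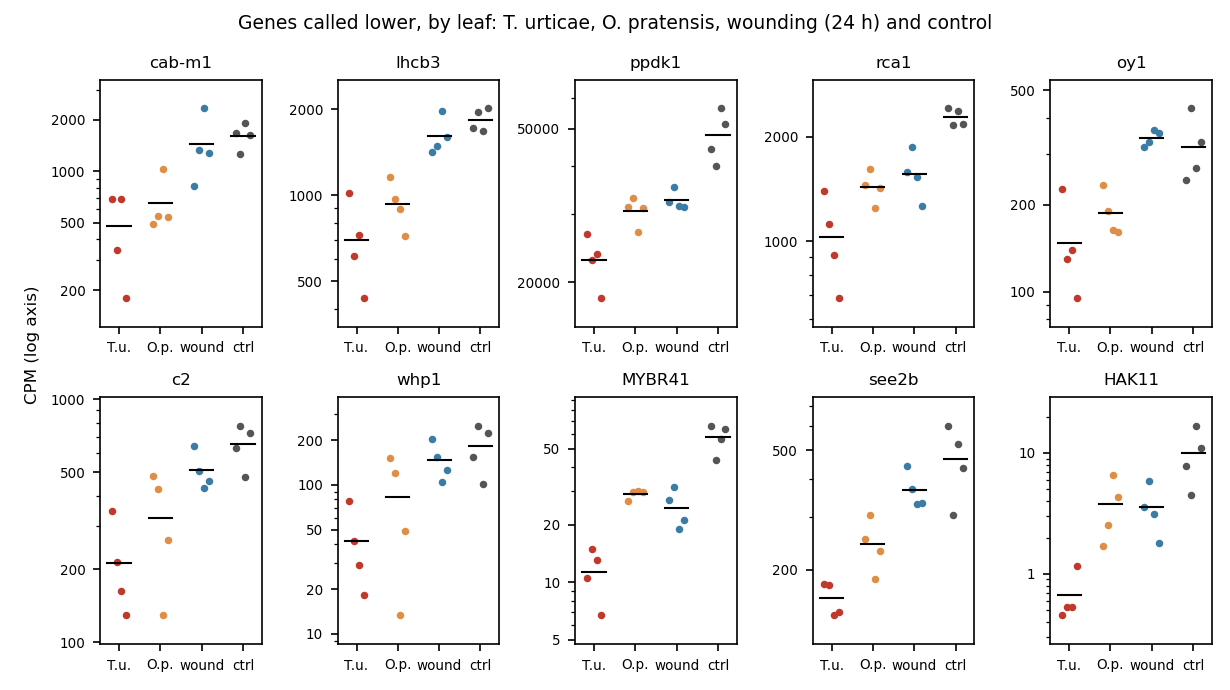
CPM of 10 genes called lower (log axis, own scale per panel), with 4 leaves each, from left to right, with *T. urticae* (T.u.), with *O. pratensis* (O.p.), wounded, and control, all treatments for 24 h. Points are leaves and bars are means, and the means of *T. urticae* leaves are the lowest of the 4 groups in each panel.

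Lists of primary metabolism and housekeeping genes had medians near 0. Of 28 cytosolic ribosomal protein genes 26 were not called, and of 22 sugar and starch genes 3 rose. Their medians were -0.04 and -0.15, and 0.23 and 0.10 with total-count scaling. The sugar risers were the cell wall invertase gene incw1 (1.54 ± 0.14), the sucrose phosphatase gene spp2 (2.34 ± 0.24) and the monosaccharide transporter gene mst1 (1.64 ± 0.13). Starch and sucrose synthesis genes such as ss1 (-0.87 ± 0.13) and sps1 (-0.94 ± 0.17) lay below 0 without reaching 2-fold. Summed, sugar and starch genes held 2609 to 3187 CPM in *T. urticae* leaves and 3451 to 4300 CPM in control leaves. Nitrogen assimilation genes held 4375 to 4702 and 4969 to 7543 CPM. Ribosomal protein genes, at 1769 to 2130 and 1823 to 2841 CPM, overlapped. Differences between these sums were not tested. In nitrogen assimilation, with 2 risers and 1 faller among 17, the nitrate reductase gene NAR averaged 112 ± 29.6 CPM in *T. urticae* leaves and 35.1 ± 18.9 CPM in control leaves and the nitrite reductase gene NIR averaged 331 ± 49.1 CPM in *T. urticae* leaves and 830 ± 386 CPM in control leaves (1.67 ± 0.46 and -1.33 ± 0.34 on the log2 scale). The call of NAR was lost without control leaf 2 (1.41, edgeR adjusted p = 0.014) or 3 (1.56, adjusted p = 0.013), and that of NIR without control leaf 3 (-1.03, adjusted p = 0.016). Control leaf 2 lay within the *T. urticae* range of NIR, so its groups overlapped.

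None of 4 clock genes was called by edgeR or DESeq2, with values from -0.54 to 0.12. At an unadjusted p under 0.05, 2 of them were lower, against 5855 of all 22339 tested genes. Among 17 aquaporin genes 3 rose and pip2-5 fell (-1.42 ± 0.18), and among 13 lipid transfer and cuticle genes 3 rose, including plt1 with 554 ± 79.6 CPM in *T. urticae* leaves and 253 ± 43.4 CPM in control leaves. The protease gene see2b, for a legumain-type enzyme linked to senescence, had 179, 178, 141 and 145 CPM in *T. urticae* leaves, against 603, 304, 525 and 437 CPM in control leaves (log2 fold change -1.54 ± 0.18, adjusted p = 1.0e-07), while see1, another senescence-linked protease gene, was at 0.53 ± 0.18 and not called.

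The largest rises were mostly in genes that the name tables used here do not name. This holds for most genes of the count table, as 2702 of 39625 had a usable symbol. Highest by fitted fold change was GRMZM2G124759, with 32.6, 69.1, 81.5 and 93.8 CPM in *T. urticae* leaves, against 0, 0, 0.0417 and 0 CPM in control leaves. It had 1 control read, which gives a ratio of 7228 (95% interval 1297 to 285546). GRMZM5G898274 had 22.4, 22.9, 23 and 17.3 CPM in *T. urticae* leaves and no control read, so it was at least 725-fold higher. GRMZM2G124799 had 178, 536, 140 and 495 CPM in *T. urticae* leaves, against 0.0758, 0.171, 0.0833 and 0.0442 CPM in control leaves (log2 fold change 11.68 ± 0.67, adjusted p = 1.6e-13). In all, 136 tested genes had no read in any control library and 115 of them were called higher. Such genes passed the expression filter only through reads in other groups, so this count describes the filtered genes and tests nothing. In the other direction, 4 tested genes had no read in any *T. urticae* library, and 0 of them were called lower.

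Of the risers with the highest CPM, MPAO, for a polyamine oxidase that makes hydrogen peroxide in the wall, averaged 1966 ± 378 CPM in *T. urticae* leaves and 205 ± 157 CPM in control leaves (log2 fold change 3.26 ± 0.33, adjusted p = 5.9e-09). The unnamed GRMZM2G032218 had 1892, 2243, 2144 and 2562 CPM in *T. urticae* leaves, against 604, 696, 704 and 808 CPM in control leaves (log2 fold change 1.65 ± 0.12, adjusted p = 9.6e-12), and its groups were far apart relative to the spread among leaves. The fallers with the highest CPM were, after ppdk1, the plastid dehydrogenase gene gpa1 with 2686 ± 499 CPM in *T. urticae* leaves and 5610 ± 1023 CPM in control leaves and GRMZM2G010884, a reciprocal match of the Arabidopsis antenna gene LHCA3, with 2240 ± 447 CPM in *T. urticae* leaves and 4824 ± 806 CPM in control leaves (log2 fold change -1.11 ± 0.16, not called at -0.98 without *T. urticae* leaf 4 and at -0.84 with total-count scaling).

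The largest falls were smaller than the largest rises. GRMZM2G092804 had 0.364, 1.78, 0.991 and 0.299 CPM in *T. urticae* leaves, against 26.7, 2.84, 13.4 and 10.8 CPM in control leaves (log2 fold change -3.94 ± 0.57, adjusted p = 1.7e-06). HAK11, a member of the HAK family of potassium transporters, had 0.454, 0.532, 0.537 and 1.16 CPM in *T. urticae* leaves, against 7.8, 4.48, 16.8 and 10.9 CPM in control leaves (log2 fold change -3.86 ± 0.54, adjusted p = 1.0e-06). Each leaf with *T. urticae* was under every control leaf for both genes. Another member of this family, HAK5, was higher, with 10.5, 17.4, 10.2 and 29.8 CPM in *T. urticae* leaves, against 3.11, 1.13, 1.08 and 1.19 CPM in control leaves (log2 fold change 3.37 ± 0.36, adjusted p = 1.2e-08), and was chosen after its values were seen.

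Set directly against leaves with *O. pratensis* for 24 h, *T. urticae* leaves had 107 genes higher (0.479% of those tested) and 94 lower (0.421%), so that 53.2% of the calls were higher, against 65.3% with total-count scaling. Most of the genes higher than with *O. pratensis*, 106 of 107, were also higher than in control leaves, whereas of the 94 lower genes 34 were higher and 10 lower than control and 50 were not called. Both comparisons contain the same *T. urticae* leaves. WRKY53 had 176, 224, 235 and 160 CPM in *T. urticae* leaves, against 69.5, 36.7, 65.3 and 63.7 CPM in *O. pratensis* leaves (log2 fold change 1.76 ± 0.27, adjusted p = 3.3e-04), and WRKY104 had a log2 fold change of 1.48 ± 0.25, adjusted p = 8.9e-04. The phenylalanine ammonia-lyase gene GRMZM2G063917 averaged 136 ± 17.6 CPM in *T. urticae* leaves and 63.8 ± 6.96 CPM in *O. pratensis* leaves (log2 fold change 1.09 ± 0.17, adjusted p = 4.0e-04). For these genes, no *O. pratensis* leaf reached the *T. urticae* leaves.

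Lower than with *O. pratensis* were chiB, with 2.59, 1.37, 1.57 and 3.03 CPM in *T. urticae* leaves, against 6.13, 4.25, 6.52 and 5.47 CPM in *O. pratensis* leaves (log2 fold change -1.38 ± 0.26, adjusted p = 0.0022), MYBR41 (-1.36 ± 0.21, adjusted p = 3.0e-04), HAK11 (-2.45 ± 0.55, adjusted p = 0.0088) and HAK5, with 10.5, 17.4, 10.2 and 29.8 CPM in *T. urticae* leaves, against 45.8, 32.7, 51.6 and 54.2 CPM in *O. pratensis* leaves (log2 fold change -1.44 ± 0.29, adjusted p = 0.0043). *T. urticae* leaves lay below every *O. pratensis* leaf for all of these genes. The calls of chiB, HAK11 and HAK5 were close to the limits. That of chiB was lost without *T. urticae* leaf 2 or 3 (edgeR adjusted p = 0.014 and 0.015), that of HAK11 when any leaf but *O. pratensis* leaf 1 was left out (0.012 to 0.038), and that of HAK5 without any leaf but *T. urticae* leaf 4 or *O. pratensis* leaf 2 (0.011 to 0.027). All 3 calls were also lost when only the 8 libraries compared were fitted, with adjusted p of 0.015 for chiB, 0.017 for HAK11 and 0.031 for HAK5 in edgeR. None of the jasmonate, 9-lipoxygenase, TIFY, benzoxazinoid, photosystem or C4 genes was called between the mites by edgeR or DESeq2. Of the 92 tested members of these 6 lists, 3 were higher and 15 lower at an unadjusted p under 0.05. Of these 15, 7 were among the 14 C4 genes and 5 among the 16 photosystem genes, against 2135 of all 22339 tested genes. The median log2 difference from *O. pratensis* was -0.33 in both of these lists, and -0.24 for C4 and -0.25 for photosystem genes with total-count scaling. For tps10 the log2 difference was 0.08 ± 0.38 and for BX10 -0.17 ± 0.31, and the photosystem genes lay between -0.49 and 0.20. Of 18 cell wall genes 14 were higher with *T. urticae* at an unadjusted p under 0.05, against 2035 of all 22339 tested genes. Among the 14 were CesA-8 at 0.73 ± 0.20 and CesA12 at 0.88 ± 0.31, but no cell wall gene was called by edgeR or DESeq2. The counts move strongly with the settings, from 58 to 117 higher and from 46 to 87 lower when 1 leaf of either group was left out. The count of higher genes was 62 without *T. urticae* leaf 3 and 58, 67 and 70 without *O. pratensis* leaf 1, 2 and 4, and that of lower genes was 51 and 46 without *T. urticae* leaf 2 and 3 and 58 and 50 without *O. pratensis* leaf 1 and 4. A test of the 2-fold limit itself (edgeR glmTreat) called 1 gene higher and 0 lower, where 2135 genes were lower at an unadjusted p under 0.05 and DESeq2 called 133 lower.

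Against leaves wounded 24 h before harvest, *T. urticae* leaves had 1896 genes higher (8.49%) and 814 lower (3.64%). Of the 1896, 1670 were also higher than in control leaves. The paper states that wounding was a single event and did not copy the continuous feeding of mites. Leaves 2 h after wounding were not compared here. For these the paper reports strong rises of BX10 and BX11, and jasmonate gene responses close to those with mites. Benzoxazinoid genes were higher than after wounding in 12 of 16 members. The same held for 11 of 18 members of the jasmonate synthesis list and 5 of 6 of the 9-lipoxygenase list, which holds lox1 and lox6. No member of these lists was called lower by edgeR or DESeq2 or was lower at an unadjusted p under 0.05. Of the 12 benzoxazinoid calls, that of Igl (1.40 ± 0.42, edgeR adjusted p = 0.0088) was close to the limit. It was lost with only the 8 libraries compared, and without *T. urticae* leaf 2, 3 or 4 or wounding leaf 1, 2 or 4. The gene lox1 had 533, 914, 696 and 878 CPM in *T. urticae* leaves, against 2.82, 2.36, 2.64 and 2.24 CPM in wounded leaves (log2 fold change 8.23 ± 0.43, adjusted p = 1.3e-13), and BX10 averaged 113 ± 26.8 CPM in *T. urticae* leaves and 1.01 ± 0.651 CPM in wounded leaves (log2 fold change 6.78 ± 0.44, adjusted p = 4.8e-12). By contrast opr1 (0.32 ± 0.28) and BX6 (0.32 ± 0.14), both called against control, were not called against wounding.

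Several defence and wall genes were lower with *T. urticae* than after wounding, although they had risen against control, as 151 of the 814 lower genes had. PR10 had 89.9, 105, 84.7 and 104 CPM in *T. urticae* leaves, against 178, 198, 234 and 194 CPM in wounded leaves (log2 fold change -1.07 ± 0.21, adjusted p = 2.0e-04), chiB averaged 2.14 ± 0.8 CPM in *T. urticae* leaves and 12 ± 2.82 CPM in wounded leaves (log2 fold change -2.49 ± 0.26, adjusted p = 2.5e-08), and chiA had a log2 fold change of -1.48 ± 0.21, adjusted p = 2.9e-06. The PR10 call lies at the 2-fold limit and was lost without wounding leaf 3 (-0.99) and with total-count scaling (-0.96). Of 11 chitinases and PR proteins 6 were higher and 3 lower with *T. urticae* than after wounding. Among 18 wall genes 2 were higher and 6 lower, among them CesA12 with 8.09, 6.91, 6.65 and 9.02 CPM in *T. urticae* leaves, against 29.9, 29.6, 50 and 52.1 CPM in wounded leaves (log2 fold change -2.40 ± 0.30, adjusted p = 4.8e-07) and CesA13 (-2.28 ± 0.33). The tubulin genes tub6 and tub5 had log2 differences from wounding of -1.81 ± 0.28 and -1.70 ± 0.23, and the lignin gene cncr2 was at -3.31 ± 0.36. These genes thus had their highest mean in wounded leaves, an intermediate one with *T. urticae* and the lowest in control leaves. For cncr2 the rise over control was 1.41 ± 0.44, and this call was lost, at 1.14 to 1.53, without *T. urticae* leaf 1, 3 or 4 or control leaf 1, 3 or 4 and with only the 8 libraries compared.

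**Figure D5:**
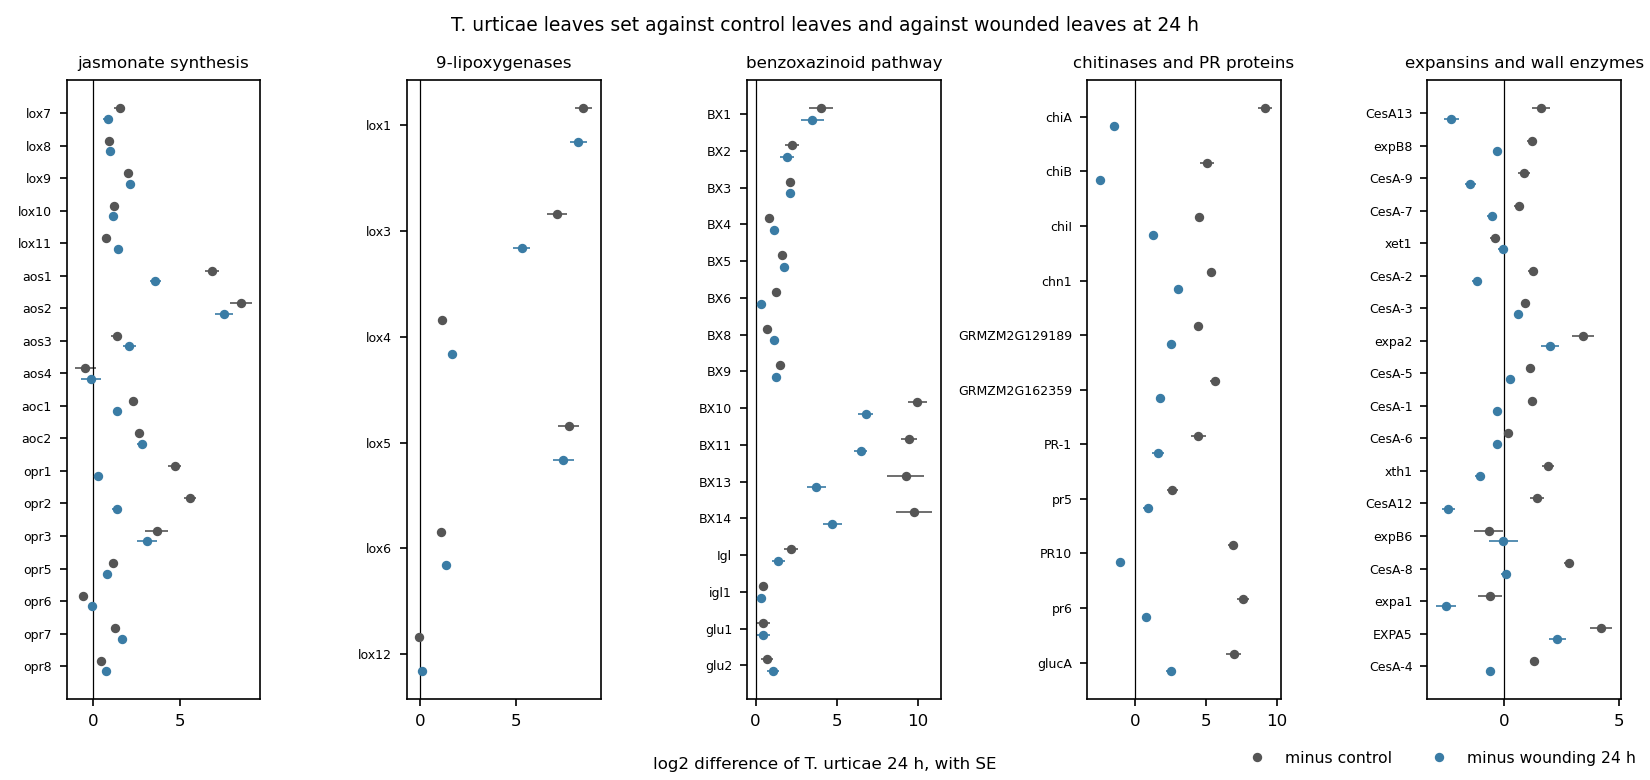
Log2 difference, with SE, of *T. urticae* leaves at 24 h from control leaves (grey) and from wounded leaves at 24 h (blue) for the tested members of 5 gene lists (rows are genes). Grey and blue points lie together to the right of 0 for most lipoxygenase and benzoxazinoid genes, while the blue points of PR10, chiA, chiB, CesA12 and CesA13 lie left of 0 and their grey points right of it.

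Of the 16 photosystem and antenna genes 7 were lower with *T. urticae* than after wounding, lhcb3 at -1.21 ± 0.21 and cab-m1 at -1.60 ± 0.44. The cab-m1 call was lost without *T. urticae* leaf 2 or 4 or wounding leaf 3 (edgeR adjusted p = 0.02 to 0.027). No C4 gene was called by edgeR or DESeq2, and 11 of 14 had lower levels at an unadjusted p under 0.05. Ribosomal protein genes gave no edgeR call against wounding either, while 21 of 28 were lower at an unadjusted p under 0.05 and DESeq2 called 1. Over all 22339 tested genes, 5118 were lower than after wounding at that unadjusted limit. The photosystem list summed to 7979 to 15030 CPM with *T. urticae*, against 18262 to 22997 CPM in wounded leaves, and these ranges did not overlap. With *O. pratensis* the sum was 13638 to 14736 CPM, within the wide range of the *T. urticae* leaves. The mean sum of the *T. urticae* leaves, 11399 ± 2989 CPM, was nevertheless below that of the *O. pratensis* leaves, 14131 ± 557 CPM. The difference between these sums was not tested.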

How the data were processed

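Polyadenylated RNA of 28 maize leaf sections was sequenced as stranded libraries, each treatment being spread over the sequencing lanes. The authors aligned reads with STAR 2.5.2b to the AGPv3 genome and deposited raw read counts per gene from HTSeq 0.6.0, with reads assigned by strand and only uniquely placed reads kept, so near-identical gene copies lose reads. Counts cover 39625 genes, of which 19060 were found in the RefSeq gene table of the NAM-5.0 assembly, used for names only. A usable symbol was had for 2702.

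Counts of all 28 libraries were analysed in edgeR 4.0.16 (R 4.3.3) with filterByExpr by group, TMM scaling, 1 mean per group and the quasi-likelihood test. Over the 22339 genes tested, Benjamini-Hochberg adjusted p-values were used. A call needed one not above 0.01 together with an absolute log2 fold change no smaller than 1. SE values were derived from the test statistic. CPM values are counts divided by library totals times TMM factors. Where control libraries held no read, folds are lower bounds against 3 reads over the group, and ratios with 1 to 3 control reads carry a Clopper-Pearson 95% interval, for counting error only. Alternatives were DESeq2 1.42.0, other scalings and filters, glmTreat, other samples in the fit, a term for the replicate number, and fits without each leaf in turn, with total-count scaling added after seeing the data. Where 1 leaf was left out, 3 remained in its group. On simulated counts for the comparison with control, 79 of 80 genes changed by 4 or 8 times were called, and 0 unchanged genes, among 22339. The simulation changed few genes, as many up as down, with the same spread set for every gene. It therefore does not test the scaling of libraries, and smaller changes, near the 2-fold limit, are not given.

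The samples compared and the gene lists were chosen with earlier results of these data known. Lists were matched by identifier or symbol, and some genes stand in more than 1 list. Genes were named by a rule: genes the study names by identifier, the 12 largest rises and 12 largest falls among expressed genes whose groups did not overlap, the 10 called risers and 10 fallers of highest CPM, the 5 largest differences each way from *O. pratensis*, the extreme and highest members of each list, and the genes with most reads in one group and none in the other. From these a selection is described. Other members named were chosen after their values were seen. The benzoxazinoid gene BX7 was not analysed here, and genes whose symbol is TPS alone were kept out of the terpene list. Position in the randomized blocks and lane of each leaf were not used, since the labels do not give them.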

Additional observations from a re-analysis of the deposited data

Results flagged for a closer look

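In 300 groups of 4 leaves, the values of the named genes were searched for a single leaf far from the other 3, and 15 were found. Chance alone flags about 1 in 20 such groups. Among *T. urticae* leaves, leaf 4 was high for HAK11 (1.16 CPM, others 0.454 to 0.537) and low for GRMZM5G898274 (17.3 CPM, others 22.4 to 23). Leaf 1 was low for see1 (194 CPM, others 393 to 420) and high for cncr2 (2.68 CPM, others 1.33 to 1.53) and psei3 (63.9 CPM, others 42.3 to 43.8). Leaf 2 was high for PER42 (289 CPM, others 204 to 217).

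Among control leaves, leaf 1 was high for HAK5 (3.11 CPM, others 1.08 to 1.19) and PER42 (122 CPM, others 80.4 to 83.1). Leaf 2 was high for AAMT1 (5.06 CPM, others 1.29 to 1.68) and GRMZM2G063917 (3.59 CPM, others 1.93 to 2), and held the only control signal of chiA (0.0342 CPM). Leaf 3 was high for tps10 (0.833 CPM, others 0.376 to 0.417) and gst31 (8.46 CPM, others 3.66 to 4.24), and held the only control signal of GRMZM2G124759 (0.0417 CPM). Leaf 4 was low for hsp22 (0.0884 CPM, others 0.333 to 0.379).

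In the direct edgeR test, 10 named genes differed between *T. urticae* and *O. pratensis* leaves at 24 h. Higher with *T. urticae*, on the log2 scale, were GRMZM5G898274 (2.37), GRMZM2G124759 (2.03), WRKY53 (1.76), WRKY104 (1.48), GRMZM2G063917 (1.09) and MYB166 (1.01). Lower were HAK11 (-2.45), HAK5 (-1.44), chiB (-1.38) and MYBR41 (-1.36). The MYB166 call lies at the 2-fold limit and was lost with DESeq2, with RLE scaling (0.99), without a filter, with the 8 libraries alone, and when *T. urticae* leaf 2 or 3 or any *O. pratensis* leaf was left out (0.79 to 1.09). With the 8 libraries alone the calls of GRMZM2G124759, HAK11, chiB and HAK5 were also lost (edgeR adjusted p = 0.016, 0.017, 0.015 and 0.031), and those of HAK11, chiB and HAK5 also without single leaves.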

How the results depend on the processing

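No result named here changed direction while called. The counts of genes higher and lower than control stayed within 1.5 times under DESeq2, RLE scaling, no filter, an adjusted p of 0.05 and the 8 libraries alone. A test of the 2-fold limit itself (glmTreat) gave 1821 higher and 111 lower than control, 820 and 122 than wounding, and 1 and 0 than *O. pratensis*. Total-count scaling gave 405 lower than control. An adjusted p of 0.05 gave 172 higher and 171 lower than *O. pratensis*, and the 8 libraries alone 61 lower. Leaving out 1 leaf gave 3162 to 3479 higher and 669 to 1244 lower than control, 58 to 117 and 46 to 87 than *O. pratensis*, and 1771 to 1967 and 631 to 1113 than wounding. The lowest counts of genes lower than control came without *T. urticae* leaf 4 and the highest without leaf 1. The cause of these shifts was not tested, apart from glmTreat, which by construction asks for more than 2-fold.

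The study placed plants in randomized blocks, but the replicate numbers of the titles are not stated to mark them. In their deviations from the group means, same-numbered *T. urticae* leaves correlated at 0.059 to 0.237 with *O. pratensis* leaves, at 0.017 to 0.133 with wounded leaves and at -0.247 to 0.181 with control leaves. All pairs were thus above 0 in the comparisons with *O. pratensis* and wounding, but in none of the 3 comparisons did every leaf correlate best with its own number. The leaves were therefore treated as sharing only a number. With a replicate block the counts were 3349 higher and 956 lower than control, 114 and 101 than *O. pratensis*, and 1908 and 861 than wounding.

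Of 613 counts within gene lists, 550 stayed within 1.5 times. Of 7294 single-gene values, 220 lost a call and 64 gained one. Levels under about 1 CPM rest on few reads.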
